A study of Rattus norvegicus with 16 samples.

Results

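A set of 9 genes of the complement system was followed in the epididymal fat of young male rats: C1qa, C1qb, C1qc, C2, C3, Cfb, C6, Cfi and Serping1. They were chosen by symbol, through the transcript accession that the array's annotation gives each probe, and 9 of the 15168 genes named on the array are members. All 16 arrays were used. HFT animals (n = 8) were sons of dams that ate a high-fat diet of 5.24 kcal/g and took a grape seed procyanidin extract (GSPE, a mixture of plant flavanols) at 25 mg/kg by mouth each day of pregnancy and lactation. HF animals (n = 8) were sons of dams on that same diet that took the vehicle alone, low-fat condensed milk, which also carried the extract in HFT. In both groups litters were set to 10 pups, weaning was at day 21, and the offspring were killed at 30 days, fed ad libitum. No dams on a standard diet enter these comparisons, and since dams are not labelled per pup, littermates would count as separate animals in every p-value below.

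Complement is a cascade of plasma proteins that marks microbes and cell debris and can perforate membranes. The classical pathway starts with C1q, whose A, B and C chains come from C1qa, C1qb and C1qc, and C2 is the protease of its convertase. The alternative pathway runs through Cfb, both pathways cleave C3, and C6 is part of the pore that follows. Cfi, a protease, inactivates the cleaved form of C3, and Serping1 is the inhibitor of the C1 proteases. Most circulating complement is made by hepatocytes, while C1q is mainly a product of macrophages and dendritic cells, and adipocytes are a known source of the alternative pathway protease Cfd. Cd68, a lysosomal glycoprotein of macrophages, and Adipoq, the adipocyte hormone adiponectin, served as the 2 genes against which the members were set. The array reads RNA of the whole tissue, so fewer cells of a type and less RNA per cell cannot be told apart.

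The 250 bases before the transcript start are shown for C1qa and C1qb, the 2 C1q chains that the RefSeq promoter table holds, and for C3 and Cfi. C1qa and C1qb lie beside C1qc in the genome and moved together between animals. C3 and Cfi each followed other genes. The table (RefSeq, build GRCr8) matched 5 of the 9 members. Each sequence runs 5′ to 3′ along the gene's strand, and capitals mark matches to GAGGAA, the core read by PU.1 and other ETS factors, or to TTCNNNGAA, the STAT palindrome, on either strand.
C1qa, chr5:154419934-154420183, minus strand: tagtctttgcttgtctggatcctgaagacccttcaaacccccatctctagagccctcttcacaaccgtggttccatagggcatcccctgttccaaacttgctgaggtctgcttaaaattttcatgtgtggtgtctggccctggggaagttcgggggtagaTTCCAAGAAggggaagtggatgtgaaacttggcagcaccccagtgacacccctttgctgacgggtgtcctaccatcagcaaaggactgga
C1qb, chr5:154407828-154408077, minus strand: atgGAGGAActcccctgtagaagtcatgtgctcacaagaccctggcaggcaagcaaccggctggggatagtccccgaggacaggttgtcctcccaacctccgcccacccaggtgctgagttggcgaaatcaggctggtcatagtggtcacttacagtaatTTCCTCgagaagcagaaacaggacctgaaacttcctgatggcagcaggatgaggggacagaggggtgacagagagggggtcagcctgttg
C3, chr9:2201340-2201589, minus strand: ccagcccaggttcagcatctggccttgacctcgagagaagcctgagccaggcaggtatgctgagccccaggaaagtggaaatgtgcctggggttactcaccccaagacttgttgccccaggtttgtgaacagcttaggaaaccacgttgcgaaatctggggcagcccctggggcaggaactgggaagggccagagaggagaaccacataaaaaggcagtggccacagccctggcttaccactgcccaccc
Cfi, chr2:221063066-221063315, plus strand: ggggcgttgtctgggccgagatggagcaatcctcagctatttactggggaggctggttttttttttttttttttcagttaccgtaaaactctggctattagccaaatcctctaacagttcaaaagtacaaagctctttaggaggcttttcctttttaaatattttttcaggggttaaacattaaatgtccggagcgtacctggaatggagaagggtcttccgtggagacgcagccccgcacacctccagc

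The C1qb window held GAGGAA at positions -247 to -242 from the start, and its reverse complement at -90 to -85. In the C1qa window the match was to TTCNNNGAA, at -90 to -82. The 2 motifs did not overlap in these windows. Neither motif, nor GTTAAT, a half-site of the hepatocyte factor HNF1, was found in the C3, C6 or Cfi windows. Of 33469 promoter windows of the same length, 23.3% held GAGGAA, 7.67% TTCNNNGAA and 6.45% GTTAAT, so single matches are common and describe letters only.

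Levels are log2 signals minus the 75th percentile of the same array, a value that was 753 to 1366 signal units before the log. A level of 0 is therefore the array's 75th percentile, and levels of different genes were not compared, because each probe binds with its own strength. Each member had 1 probe except C2, which had 2, and all members, Cd68 and Adipoq were well above background on 16 of 16 arrays with 0 saturated spots. Of 18 adipocyte genes on the marker list with a probe, 18 were well above background on all arrays. Some arrays were also high for genes of other tissues. Lcn5, an epididymal lipocalin, read 3.42 to 4.12 on HFT 23, HFT 28 and HF 8, and at most -2.71 on the rest. Lcn5 is 1 gene of an epididymal list whose median score was high on 0 arrays (at most 0.37). Of that list's 16 genes with a probe, 5 were kept. Uroplakin gene Upk3a read 2.95 to 4.70 on HFT 22, HFT 24 and HF 35, and at most -5.98 elsewhere. A hepatocyte list was scored as the median of the centred levels of its 16 genes with a probe, of which 14 were kept. This score stood highest on HFT 36 (3.02) and HF 10 (3.67). Some results that rest on these arrays are given with and without them below. High for neither Lcn5 nor the urothelial list are 10 arrays, which leave out HFT 22, HFT 23, HFT 24, HFT 28, HF 8 and HF 35.

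The members fell into a group whose levels were steady between animals and a group whose levels were not. Serping1, C2, C1qa, C1qb, C1qc and Cfb spanned 0.70 to 1.34 log2 units over the 16 animals, which is a 1.62-fold to 2.54-fold range. C6 spanned 3.04 units (8.25-fold). C3 spanned 4.68 units (25.6-fold) and Cfi 4.65 units (25.1-fold). For comparison, Adipoq spanned 0.92 units and Cd68 1.11 units.

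**Figure D1:**
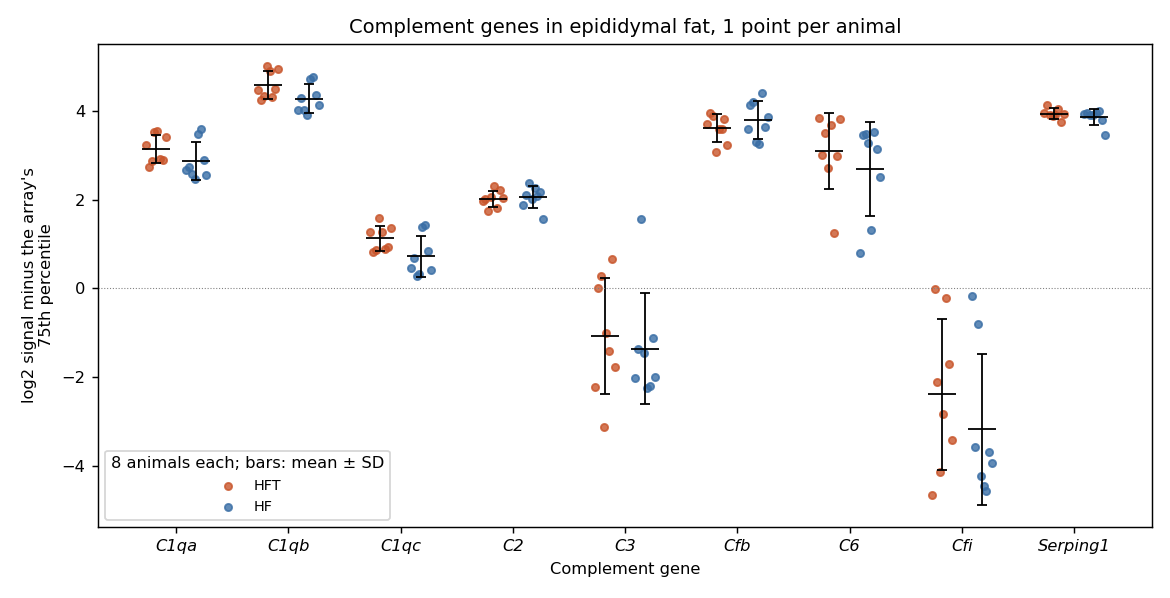
Level of each complement gene (vertical axis, log2 signal minus the array's 75th percentile) in each animal, HFT left and HF right of each pair, with the mean and SD of 8 animals. The points of C3, Cfi and C6 are spread over 3.04 to 4.68 units, those of the other 6 genes over at most 1.34, and the groups overlap for every gene. Heights of different genes are not comparable.

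No member passed the test of HFT against HF, and the C1q chains had the lowest unadjusted values of p among the 9. C1qa had a lowest, median and highest level of 2.74, 3.08 and 3.54 in HFT animals, against 2.46, 2.70 and 3.59 in HF animals. C1qb had 4.25, 4.48 and 5.01 in HFT, against 3.91, 4.20 and 4.75 in HF. C1qc had 0.82, 1.11 and 1.59 in HFT, against 0.27, 0.57 and 1.42 in HF. For all 3 chains the lowest HFT animal lay above the HF median, while the groups overlapped. The differences between HFT and HF were 0.27 for C1qa (SE 0.18, exact permutation p = 0.163), 0.32 for C1qb (SE 0.15, p = 0.0701) and 0.40 for C1qc (SE 0.18, p = 0.0589). C1qc averaged 1.13 ± 0.28 in HFT and 0.73 ± 0.46 in HF (SD, n = 8 each), and 8 of 8 HFT animals lay above the HF mean, as did 7 of 8 for C1qa and for C1qb. The exact test is two-sided, over the 12870 ways to divide the animals, and unadjusted. After Benjamini-Hochberg adjustment over 21808 probes the limma p of each member was 0.999994.

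The direction of the C1q difference was not the same on every slide. Each of the 4 slides held 2 HFT and 2 HF arrays, with HFT always at the same positions, so a position effect cannot be told apart from HFT against HF. Within slides 1, 2 and 4 the C1qc difference between HFT and HF was 0.47, 0.93 and 0.53. On slide 3 it was -0.32, and there C1qa (-0.30), C1qb (-0.14) and Cd68 (-0.11) were also lower in HFT. Beside these values, Cd68 itself differed by 0.35 (SE 0.13, exact permutation p = 0.0266, adjusted limma p = 0.999994), with 8 of 8 HFT animals above the HF mean. Of the 20 kept genes of the macrophage list, which leaves out Cd68, 20 lay above 0 in HFT minus HF, 6 of them with an unadjusted p under 0.05 and 0 past adjustment. Of all 21808 kept probes 9558 lay above 0, and 1.13% were higher at that p. The summed linear level of that list was 50.8 to 67.7 times the 75th percentile in HFT and 44.7 to 56.9 in HF. The part of these markers in the C1q difference was not tested.

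C2 and Cfb, the proteases of the pathways' convertases, differed between the groups by less than the spread between animals. C2 had a lowest, median and highest level of 1.74, 2.03 and 2.30 in HFT, against 1.57, 2.09 and 2.38 in HF. The C2 difference was -0.04 (95% interval -0.27 to 0.19), and the gene's second probe gave -0.06. Without HF 35 the first probe gave -0.11 and without HF 10 0.01. Cfb, the alternative pathway's counterpart of C2, averaged 3.61 ± 0.31 in HFT and 3.80 ± 0.43 in HF (SD, n = 8 each). The Cfb difference was -0.19 (SE 0.18, exact permutation p = 0.33). It lay below 0 on 4 of 4 slides and came to -0.10 without HF 13.

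C3, the protein on which the pathways converge, had a lowest, median and highest level of -3.12, -1.21 and 0.67 in HFT, against -2.25, -1.73 and 1.56 in HF. Both extremes over the 16 animals, HFT 25 at the bottom and HF 10 at the top, were on slide 2. The C3 difference was 0.29 (SE 0.60, 95% interval -0.99 to 1.56). It came to 0.70 without HF 10 and to 0.04 without HFT 36, and over the 10 arrays high for neither Lcn5 nor urothelial genes it was -0.17.

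C6, a subunit of the membrane pore, had levels of 1.25, 3.24 and 3.84 in HFT (lowest, median and highest), against 0.80, 3.21 and 3.53 in HF. At the low end 3 animals stood apart, HFT 28 at 1.25, HF 8 at 0.80 and HF 12 at 1.32, while no other animal was below 2.51. Of these, HFT 28 and HF 8 are also high for Lcn5. The C6 difference was 0.41 (SE 0.45, exact permutation p = 0.401), and it was 0.14 without HF 8 and 0.67 without HFT 28.

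Of the inhibitors, Cfi varied most and Serping1 least. Cfi had a lowest, median and highest level of -4.66, -2.46 and -0.01 in HFT, against -4.56, -3.80 and -0.17 in HF. The highest Cfi levels were those of the animals high for Lcn5, HFT 23 (-0.01), HFT 28 (-0.22) and HF 8 (-0.17), and HF 10 followed at -0.80. The Cfi difference was 0.79 (SE 0.80, 95% interval -0.90 to 2.47), and it was 0.45 without HFT 23 and 1.22 without HF 8. Serping1 averaged 3.94 ± 0.11 in HFT and 3.86 ± 0.18 in HF (SD, n = 8 each), a difference of 0.08 (95% interval -0.09 to 0.25) that came to 0.02 without HF 35. The interval of Cfi was thus far wider than that of Serping1.

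Of the 9 members, 7 lay above 0 and 2 below 0 in HFT minus HF, with a median of 0.29, beside a median of -0.0157 over all 21808 kept probes. None passed the adjusted threshold of 0.05, where 0% of all kept probes passed (0 of 21808, limma), against 515 at an unadjusted p under 0.05. C1qc alone was higher at an unadjusted p under 0.05, a level that 1.13% of all probes reached in that direction. The groups overlapped for 9 of 9 members, and 0% of all kept probes were free of overlap.

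**Figure D2:**
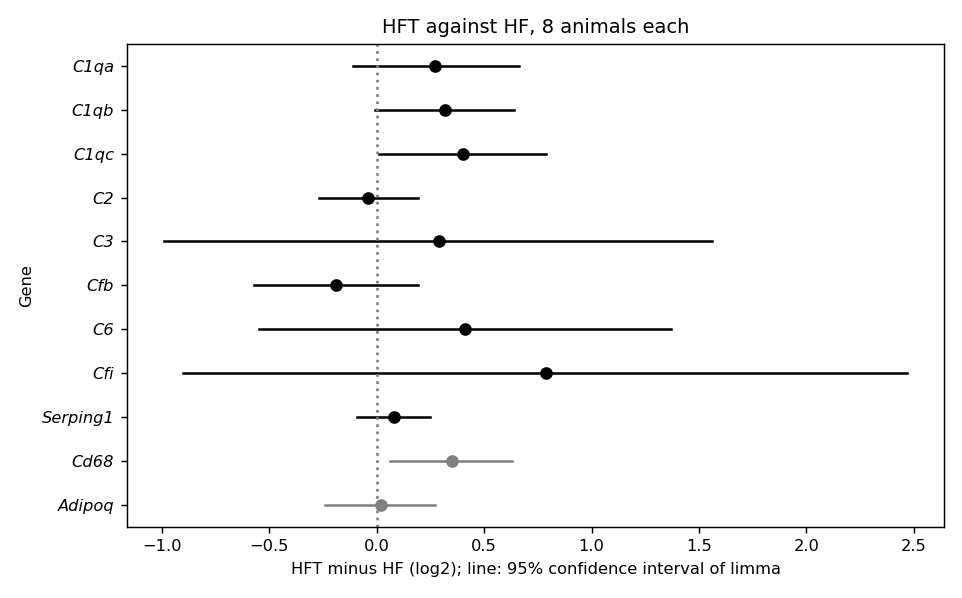
Difference between HFT and HF (horizontal axis, log2) for the 9 complement genes and, in grey, Cd68 and Adipoq, with limma's 95% confidence interval over 8 animals each. The interval of C1qc runs from 0.01 to 0.79 and that of Cd68 from 0.06 to 0.63, and the intervals of C3, C6 and Cfi are the widest of those plotted.

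The C1q chains followed Cd68 from animal to animal. Over the 16 animals Pearson's r with Cd68 was 0.871 for C1qa, 0.914 for C1qb and 0.919 for C1qc, and Spearman's rho was 0.897, 0.924 and 0.941. The permutation p of each was at most 2e-05, and at most 0.00012 after adjustment over the 18 relations of the 9 members with Cd68 and Adipoq (1e-05 is the smallest that 100000 permutations can give). Without the 2 animals farthest from the median of Cd68, r was 0.861, 0.858 and 0.906. With the slide means removed, r was 0.91, 0.953 and 0.93. Over the 10 arrays high for neither Lcn5 nor urothelial genes it was 0.87, 0.957 and 0.932 (adjusted permutation p at most 0.00642, and 0.089 for the rho of C1qa). Within the 8 HFT animals r was 0.858, 0.932 and 0.948, against 0.875, 0.855 and 0.883 within the 8 HF animals. Exact permutation tests within each group put the adjusted p at no more than 0.019 in HFT (n = 8) and 0.043 in HF (n = 8) for these 3 r, while in HF the adjusted p of rho was 0.0821 to 0.098.

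**Figure D3:**
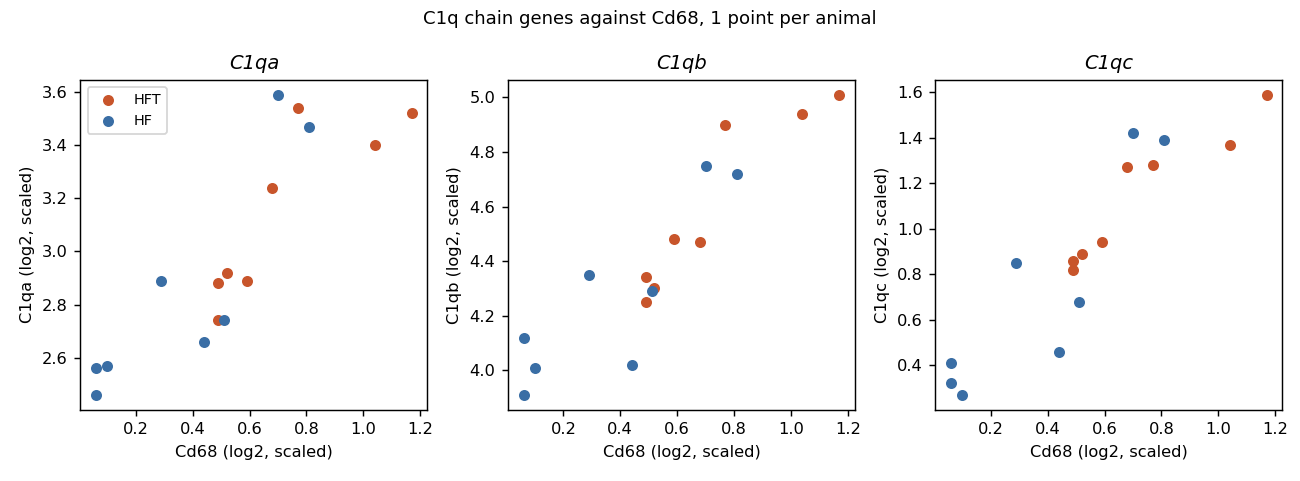
Level of C1qa, C1qb and C1qc (vertical axes, log2 signal minus the array's 75th percentile) against Cd68 (horizontal axis, same scale), 1 point per animal, HFT and HF in separate colours. Points of both groups lie along 1 rising band, with Pearson's r of 0.871, 0.914 and 0.919 over 16 animals.

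The 3 chains also followed one another, with r of 0.951 between C1qa and C1qb, 0.964 between C1qa and C1qc and 0.95 between C1qb and C1qc (adjusted permutation p = 0.00012 each over 36 pairs). No other of the 36 pairs passed over all 16 animals. C3 and Cfi had r = 0.594 there (adjusted permutation p = 0.129), and passed with slide means removed (r = 0.66, adjusted permutation p = 0.0378) and over the 10 arrays high for neither Lcn5 nor urothelial genes (r = 0.931, adjusted permutation p = 0.00297). Against 6 marker lists of cell types, each scored as the mean of its centred genes, the chains had r of 0.882 to 0.921 with the macrophage list. They also had r of 0.735 to 0.852 with the list of fibroblasts and preadipocytes (adjusted permutation p at most 0.0141 over 54 relations). The r with that second list was, over the 10 arrays, 0.889 for C1qa, which still passed, and 0.786 for C1qb and 0.81 for C1qc, which did not (adjusted permutation p = 0.0704 and 0.0533). For C1qb the call was also lost with slide means removed (r = 0.678, adjusted permutation p = 0.0585) and without the 2 animals farthest from the list's median (r = 0.672, adjusted permutation p = 0.0668). The genes nearest to the chains over the 16 animals included Alox5 (r = 0.95 with C1qa), the lectin receptor Clec4a1 (r = 0.945 with C1qb), and Igsf6 (r = 0.965) and the mannose receptor Mrc1 (r = 0.958) with C1qc. Mrc1 is also on the macrophage list.

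No member other than the C1q chains passed with Cd68. C3 (r = -0.451, adjusted permutation p = 0.178) and Cfb (r = -0.424, adjusted permutation p = 0.2) ran against it. With the group means removed, C3 passed (r = -0.626, rho = -0.641, adjusted permutation p = 0.035 for r), and without the 2 animals farthest from the median of Cd68 its r was -0.266. Cfb had r of -0.942 with Cd68 within HFT (adjusted exact permutation p = 0.0109, n = 8) and 0.0349 within HF, and the difference between these was not tested. Without the 2 animals farthest from the median of Cd68, the pooled r of Cfb was -0.0502. An r with Cd68 of at least 0.5 was reached by 3 of 9 members and by 3.71% of all other kept probes, and one of -0.5 or lower by 0 of 9 members and 1.58% of probes. The same 3 chains reached 0.5 over the 10 arrays, where 7.58% of all probes did, and C3 was at -0.5 or lower there (-0.623), as 6.18% of probes were.

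With Adipoq, C2 was the 1 member that passed. Its r was 0.75 and its rho 0.788 over 16 animals (adjusted permutation p = 0.00351 for r), and r was 0.732 without the 2 animals farthest from the median of Adipoq. It was 0.839 within HFT and 0.756 within HF, and 0.787 with the slide means removed. Over the 10 arrays high for neither Lcn5 nor urothelial genes r was 0.549 (adjusted permutation p = 0.362). The second C2 probe, which had r = 0.852 with the first, had r = 0.555 with Adipoq. Against the adipocyte list C2 had r = 0.531 (adjusted permutation p = 0.186). That relation passed with slide means removed (r = 0.645, adjusted permutation p = 0.0409) and without the 3 urothelial arrays (r = 0.728, adjusted permutation p = 0.0327), and over the 10 arrays r was 0.234. Genes nearest to C2 were Gstt1 (r = 0.881), Lamc1 (r = 0.863) and Enpp2 (r = 0.829), and over the 10 arrays their r with C2 was 0.625, 0.585 and 0.492.

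A further 3 members reached r of 0.5 with Adipoq, C1qa (0.507), C1qb (0.533) and C6 (0.514), and none of these passed adjustment (adjusted permutation p = 0.112 each). Without HF 10 the first 2 of them passed (r = 0.626 and 0.666), and without HF 12 C6 did (r = 0.701). In all, 4 of 9 members reached 0.5, where 20.5% of all other kept probes did, and over the 10 arrays 1 of 9 did, against 18.4% of probes. C6 had an r with Adipoq of -0.00953 over those 10 arrays, where its rho was 0.406, against 0.465 over all 16. The median r with Adipoq over all kept probes was 0.168, against -0.00348 with Cd68. Cd68 and Adipoq had r = 0.316 with each other (permutation p = 0.233).

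C3 and Cfi passed with neither gene, and those nearest to C3 encode plasma proteins. C3 was nearest to Hp, which encodes haptoglobin (r = 0.969), to Apoa1 (r = 0.95) and to Serpina4 (r = 0.949), and 49 genes had r of at least 0.9 with it. Against the hepatocyte list, a relation added after these values were seen and so given without a test, C3 had r = 0.967 and rho = 0.915 over 16 animals. Its r was 0.982 within HFT, 0.957 within HF, 0.971 with slide means removed and 0.929 without HFT 36 and HF 10. In the same order its rho was 1, 0.762, 0.932 and 0.873. Apoa1 is also a member of that list. The list's score ran from -1.50 to 3.02 in HFT (median 0.50) and from -1.08 to 3.67 in HF (median -0.42). Of its 14 kept genes, 14 lay above 0 in HFT minus HF with 0 at an unadjusted limma p under 0.05. Of all 21808 kept probes 9558 lay above 0. These 14 genes each had r of 0.691 to 0.95 with C3 over the 16 animals. The list's summed linear level was 4.75 to 40.4 times the 75th percentile in HFT and 4.31 to 80.8 in HF. Alb, encoding albumin, read 3.98 on HFT 36, 5.36 on HF 10 and 0.82 to 4.30 on the other arrays. The hepatocyte enzyme genes Tat and Cps1 were not well above background on HFT 36, and over all 16 arrays Cps1 was so on 0 and Tat on 1 HF array. Both read highest on HF 10, Tat at -5.83 and Cps1 at -7.07, against -8.31 and -7.74 on HFT 36. On the remaining arrays Tat read at most -7.67 and Cps1 at most -8.23. The part of these genes in the C3 values was not tested.

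Cfi had its highest levels in the animals high for Lcn5, and its r with the hepatocyte list and with Adipoq differed when arrays were left out. Its r with the hepatocyte list, again without a test, was 0.547 (rho 0.594) over all 16 animals and 0.518 without the 3 urothelial arrays. Over the 10 arrays high for neither Lcn5 nor urothelial genes, a set defined after the data were seen, it was 0.967 (rho 0.867). With Cd68 the r of Cfi was -0.242 over 16 animals and -0.345 over 10, and with Adipoq it was -0.391 and 0.32. Genes nearest to Cfi, chosen over all 16 arrays, were Pklr, a pyruvate kinase of liver and red cells, Cyp4f1 and Serpinf2. Their r with Cfi was 0.985, 0.978 and 0.973 over the 16 arrays, and 0.965, 0.959 and 0.973 over these 10. Over the 16 arrays 25 genes had r of at least 0.9 with Cfi. The 3 animals high for Lcn5 had Cfi levels of -0.22 to -0.01 at hepatocyte scores of 1.90 or lower.

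**Figure D4:**
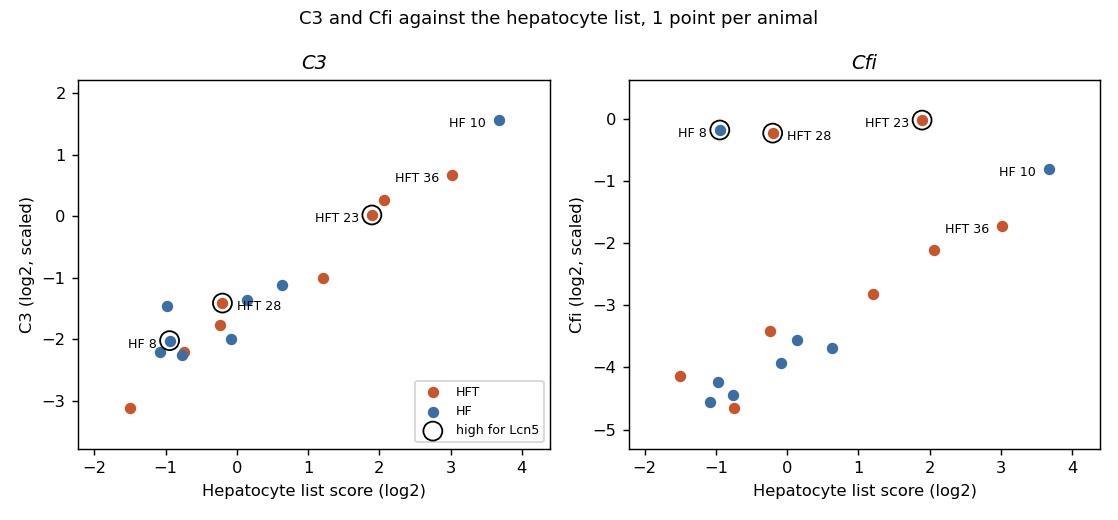
Level of C3 and Cfi (vertical axes, log2 signal minus the array's 75th percentile) against the hepatocyte list score (horizontal axis, log2), 1 point per animal, with circles around the 3 animals high for Lcn5. C3 rises with the score from -3.12 on HFT 25 to 1.56 on HF 10, whereas HFT 23, HFT 28 and HF 8 lie off the Cfi band at -0.01, -0.22 and -0.17.

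Cfb, C6 and Serping1 each had their own pattern. Cfb had r = 0.684 and rho = 0.682 with the mesothelial list (adjusted permutation p = 0.0265 for r over 54 relations), and r = 0.727 without the 2 animals farthest from that list's median. This r was 0.905 over the 10 arrays, but the call was lost with the slide means removed (r = 0.66, adjusted permutation p = 0.127) and with normexp background correction (r = 0.636, adjusted permutation p = 0.0623). The genes nearest to Cfb were Apoc4 (r = 0.789), Rbfox1 (r = 0.782) and Slc17a9 (r = 0.782). C6 was nearest to Crem (r = 0.897), Car5b (r = 0.876) and Rpe (r = 0.856), and Serping1 to Mynn (r = 0.865), Rnf19a (r = 0.797) and Klk1c2 (r = 0.792, but 0.0462 over the 10 arrays). No gene had r of 0.9 or more with C2, Cfb, C6 or Serping1.

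**Figure D5:**
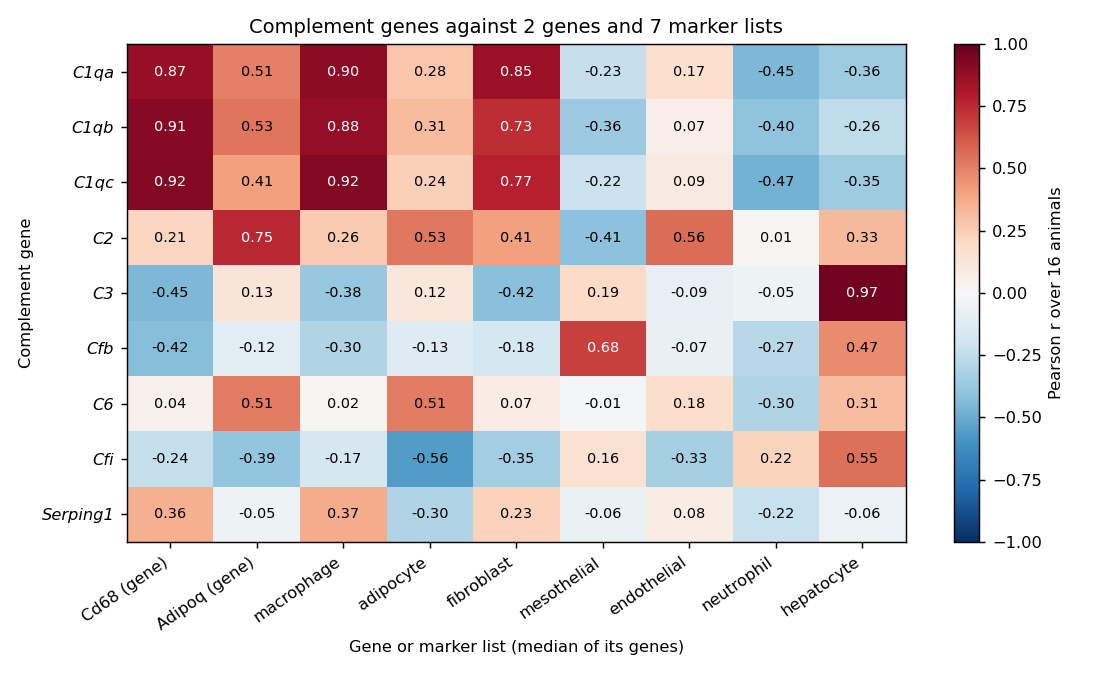
Pearson's r of each complement gene (rows) with Cd68, Adipoq and 7 marker lists (columns), over 16 animals. The axis label names a median, which holds for the hepatocyte list alone, and the other lists are means of centred genes. The 3 C1q rows are high for Cd68 and for the macrophage and fibroblast lists, C2 is high for Adipoq (0.75), Cfb for the mesothelial list (0.684), and C3 for the hepatocyte list (0.967, against 0.547 for Cfi).

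Beyond the 9 members, 40 other complement genes were analysed, of which 7 had no probe with their symbol, 9 were not kept for low signal and 24 were kept. Of these, 14 lay above 0 and 10 below 0 in HFT minus HF, with a median of 0.0834. At an unadjusted limma p under 0.05, 4 of the 24 were higher and 0 lower, where 1.13% of all kept probes were higher and 1.23% lower. None of the 24 passed limma's adjusted threshold. The 4 were the ficolins Fcna (0.46) and Fcnb (0.36), lectin pathway sensors, the C5a receptor C5ar1 (0.35) and the integrin chain Itgb2 (0.36). C5ar1 averaged -1.76 ± 0.24 in HFT and -2.11 ± 0.25 in HF (SD, n = 8 each). The same 4 had r of 0.767 to 0.851 with Cd68, and properdin (Cfp), which stabilises the alternative pathway convertase, had r = 0.871. In all, 8 of the 24 had an r with Cd68 of at least 0.5 (3.71% of all kept probes), and 1, Susd4, one of -0.5 or lower (1.58%).

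With Adipoq, 9 of the 24 other complement genes had r of at least 0.5, which 20.5% of all kept probes reached. Vitronectin (Vtn, r = 0.768), C4a (r = 0.711), Cr1l (r = 0.704), Itgam (r = 0.696) and Cfd (r = 0.662) had the highest. Cfd averaged 7.32 ± 0.40 in HFT and 7.32 ± 0.31 in HF (SD, n = 8 each). C4a has a near-identical copy, C4b, so which of them its probe reads is uncertain, and Itgam is on the macrophage list too. C1s, a protease of the C1 complex, was the 1 gene with r of -0.5 or lower (-0.6), as 10.5% of all kept probes had. By role, 2 of 7 kept initiators, 1 of 4 alternative and terminal components, 2 of 8 inhibitors and 3 of 5 receptors reached 0.5 with Cd68, and with Adipoq 2, 2, 3 and 2 did.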

How the data were processed

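Epididymal fat RNA of 8 HFT and 8 HF animals was hybridised to 16 one-colour Agilent arrays on 4 slides. Per the file headers, the authors' scanner software (Agilent Feature Extraction 10.7.3.1) subtracted background from each spot's intensity and detrended it, and nothing was normalized between arrays. The raw median intensities of spot and background, and the 0 or 1 marks per spot, are also Feature Extraction output, per the file headers. The authors deposited a table of log2 values too, with normalization not given in the sources used here. Its columns had medians of 7.33 to 7.36 and each of the 16 correlated best with its own array. It served as an alternative only.

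From each log2 processed intensity the 75th percentile of the array's 58717 spots other than controls was taken off, with spots marked as not uniform or outlying left out and replicate spots averaged. Of 30367 probes, 23 were dropped, and those well above background on at least 4 of 8 arrays of a group were kept (21808). RefSeq accessions matched to a rat gene table (GRCr8) named 18005 probes, and 12362 stayed unnamed. The array design is of build rn4, so no position is given except for promoter windows. A gene with several probes was read from the one with the highest mean. limma 3.58.1 in R 4.3.3 compared HFT with HF over all kept probes without covariates (adjusted p under 0.05). Exact permutation tests divided the 16 animals, correlations used 100000 permutations (exact within a group of 8), and the R package data.table (version 1.17.8), pandas and numpy handled the files. All p-values are two-sided, and they are Benjamini-Hochberg adjusted only where called adjusted or given as after adjustment. An array was called high for a list when its score lay over 3 log2 units above the median array.

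Named were the 9 members, the 3 nearest genes of each, and, of other complement genes, those at an unadjusted p under 0.05 and the 5 nearest to Cd68 and to Adipoq. A gene of the list of other complement genes is not reported here. Members and lists were chosen with earlier results of these data known. The arrays' number, 8 per group, limits the precision. Scripts were tested on simulated data. Alternatives were normexp (offset 50), quantile normalization, the deposited values, other filters, slide, array weights, scores of other tissues as covariates, and arrays or animals left out. The rule on arrays high for Lcn5, the hepatocyte relation and the values within each group were added after the data were seen.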

Additional observations from a re-analysis of the deposited data

Results flagged for a closer look

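Within a group of 8 animals, 1 animal stood far from the others for 3 of the 18 sets of member and group. Chance marks about 1 in 20 such sets. C6 read 1.25 in HFT 28, where the other 7 HFT animals lay between 2.71 and 3.84, and this gap was 0.563 of the group's range. C3 read 1.56 in HF 10, the animal highest for the hepatocyte list, with the other HF animals between -2.25 and -1.11. Serping1 read 3.45 in HF 35, the animal highest for the urothelial list, with the other HF animals at 3.79 or higher. HFT 22 and HFT 24, the other animals high for that list, read 3.95 and 3.90.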

How the results depend on the processing

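No paired analysis was possible because the HFT and HF animals share no replicate numbers. The number of probes past adjustment was 0 in each fit tried, each animal left out included, and no member difference passed in any. Members past adjustment with Cd68 numbered 3 in each alternative except 4 with group means removed (C3 added) and 4 within HFT (Cfb added). With Adipoq the count was 1, but 3 with the deposited values or without the arrays high for hepatocyte genes (C1qa and C1qb joined C2), 0 without those high for Lcn5 or urothelial genes and within HF, and 1 to 3 with 1 animal left out (3 without HF 10, 2 without HF 12). Pairs of members past adjustment numbered 3 or 4 and relations with marker lists 5 to 8, against 3 and 7. The cause was not tested.

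Other values changed sign, none of them past adjustment on either side except the r of Cfb with Cd68 within HFT given above. Without the arrays high for Lcn5 or urothelial genes, HFT minus HF was -0.171 for C3 and -0.0471 for Serping1, and r was -0.261 for C2 and -0.197 for C6 with Cd68, and -0.00953 for C6 and 0.32 for Cfi with Adipoq. Without the urothelial arrays alone, r with Cd68 was -0.0619 for C2 and -0.0124 for C6. Within HF, r with Cd68 was 0.0349 for Cfb and -0.336 for C6, and with Adipoq 0.0213 for Cfb and 0.333 for Serping1. Within HFT it was -0.305 for Serping1 with Cd68 and -0.0454 for C3 with Adipoq. Without the 2 animals farthest from the median, it was -0.0617 for C6 with Cd68 and 0.135 for Serping1 with Adipoq. For C6 with Cd68 it was -0.0979 with group means removed. For C3 with Adipoq it was -0.000677 with the deposited values and -0.162 without the arrays high for hepatocyte genes. For Serping1 with Adipoq it was 0.192 with quantile normalization, 0.208 with the deposited values and 0.17 with slide means removed. With 1 animal left out, HFT minus HF for C2 was -0.108 to 0.00833, and r was -0.028 to 0.448 for C2, -0.0701 to 0.159 for C6 (both with Cd68), and -0.017 to 0.205 for C3 and -0.4 to 0.128 for Serping1 (both with Adipoq). Another probe of Cd68 or Adipoq could not be tried, since each has 1.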
